A study of Homo sapiens with 12 samples.

Results

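Cadherins and claudins are the adhesion proteins of adherens and tight junctions. All genes whose symbol in the platform annotation is CDH or CLDN followed by a number were taken, without protocadherins and antisense genes. This gave 41 genes, 21 cadherins and 20 claudins, of the 19775 genes tested, and 81 of the 54675 probe sets. RNA came from 4 human ovarian cancer cell lines grown without treatment, with 3 Affymetrix U133 Plus 2.0 arrays per line and 12 in all. IGROV1, TOV112D (labelled T112D in the sample titles) and TOV21G were cultured in RPMI medium and SKOV3 in DMEM, all with fetal calf serum, and the labels call each line parental. Only SKOV3 was in DMEM, so line and medium cannot be told apart in its differences from the other lines. By origin, TOV21G is a clear cell and TOV112D an endometrioid ovarian carcinoma line. CDH4, CDH13, CLDN22, CLDN24, CLDN25 and CLDN34 were not analysed here, CLDN22 because its 3 probe sets are listed with a second gene.

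Cadherins bind calcium with their extracellular repeats and hold neighbouring cells together, mostly by pairing with the same cadherin on the next cell. Their cytoplasmic tails bind catenins, which connect them to actin. Epithelia mainly carry E-cadherin (CDH1), and mesenchymal and neural cells N-cadherin (CDH2). A shift from the first to the second accompanies the mesenchymal transition of carcinoma cells. Claudins span the membrane several times and form the strands of tight junctions, where some members seal the space between cells and others form ion channels through it. CLDN3, CLDN4, CLDN6 and CDH6 are known as surface antigens of ovarian carcinomas.

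All levels are log2 values after robust multi-array averaging (RMA). The scale has a floor near 2 to 3, and the size of a difference from a line at the floor depends on it. The lowest level also depends on the probe set. The lowest line mean was 5.68 for CLDN6 and 5.77 for CLDN3 by the probe sets used, and 3.26 and 3.20 by their other probe sets. Each gene was read by its probe set with the highest mean over the 12 arrays, and levels were compared between lines within a gene only. A gene was called in a comparison at a limma adjusted p under 0.05 (Benjamini-Hochberg over all 19775 genes) and a difference of at least 1, which is 2-fold. An array reads the average over a culture, so fewer cells expressing a gene and less RNA per cell cannot be told apart. The labels do not say whether the 3 arrays of a line are from separate cultures, and the p-values therefore reflect array-to-array spread alone, some or all of it possibly technical.

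ERBB2, for whose amplification SKOV3 is known, did not follow that label. It was at 8.14 ± 0.09 (SD, n = 3) in the arrays labelled SKOV3 and at 8.48 to 9.01 in the other lines, and none of the 5 genes of its neighbourhood (ERBB2, GRB7, MIEN1, STARD3 and PGAP3) was called higher there. Every direction given for that group therefore holds for the arrays labelled SKOV3. Arrays of the same line correlated at 0.9972 to 0.9976 and arrays of different lines at 0.8892 to 0.9395 over all genes. The 6 epithelial markers KRT7, KRT8, KRT18, KRT19, EPCAM and PAX8 were all called higher in IGROV1 than the mean of the other lines. All 6 were called lower in TOV112D, where their means were 3.02 to 6.96. In the arrays labelled SKOV3, 2 were called higher and 4 lower. KRT8 (11.75) and KRT18 (12.62) were highest in those arrays, and EPCAM (3.41) was lowest there. In TOV21G 2 were called higher and 1 lower. The 3 leukocyte markers measured, PTPRC, CD3E and CD14, had means of 2.79 to 4.58 in all lines. PTPRC was called higher in TOV112D than the mean of the others (limma adjusted p = 9.1e-09), at 4.58 against 2.79 to 2.95. Of 6 fibroblast markers, TOV112D had 3 with a call upward and 1 downward. Under the SKOV3 label 2 went up and 3 down, in TOV21G 1 and 4, and in IGROV1 0 and 5. Summed levels over the list were 50.39 to 51.74 in TOV112D and 33.26 to 34.14 on the arrays labelled SKOV3. The arrays of the other lines gave 23.60 to 29.05. The part of such markers in the results below was not tested.

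Of the 41 genes, 18 were called in at least 1 of the 6 pairs of lines, 9 cadherins and 9 claudins, a share of 43.9% beside 34.4% of all genes tested. Each of the 18 had a mean of at least 4.44, the median over every deposited value, in its highest line. The remaining 23 genes were called in no pair. IGROV1 was the highest line for 8 of the 18, the arrays labelled SKOV3 for 6, TOV112D for 3 and TOV21G for 1. These counts go by the highest mean alone, and the same counts over all genes were not made. IGROV1 was not called above TOV21G for CLDN2 (0.79), CLDN7 (0.99) and CLDN23 (0.72), nor TOV21G above IGROV1 for CLDN1 (0.59). The range between the highest and lowest line mean exceeded 4 for 9 of the 41 genes (22.0%), namely CDH1, CDH2, CDH6, CDH12, CLDN1, CLDN3, CLDN10, CLDN11 and CLDN16, and for 5.28% of all genes. The median range was 0.51 for cadherins, 0.87 for claudins and 0.64 for all genes.

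**Figure D1:**
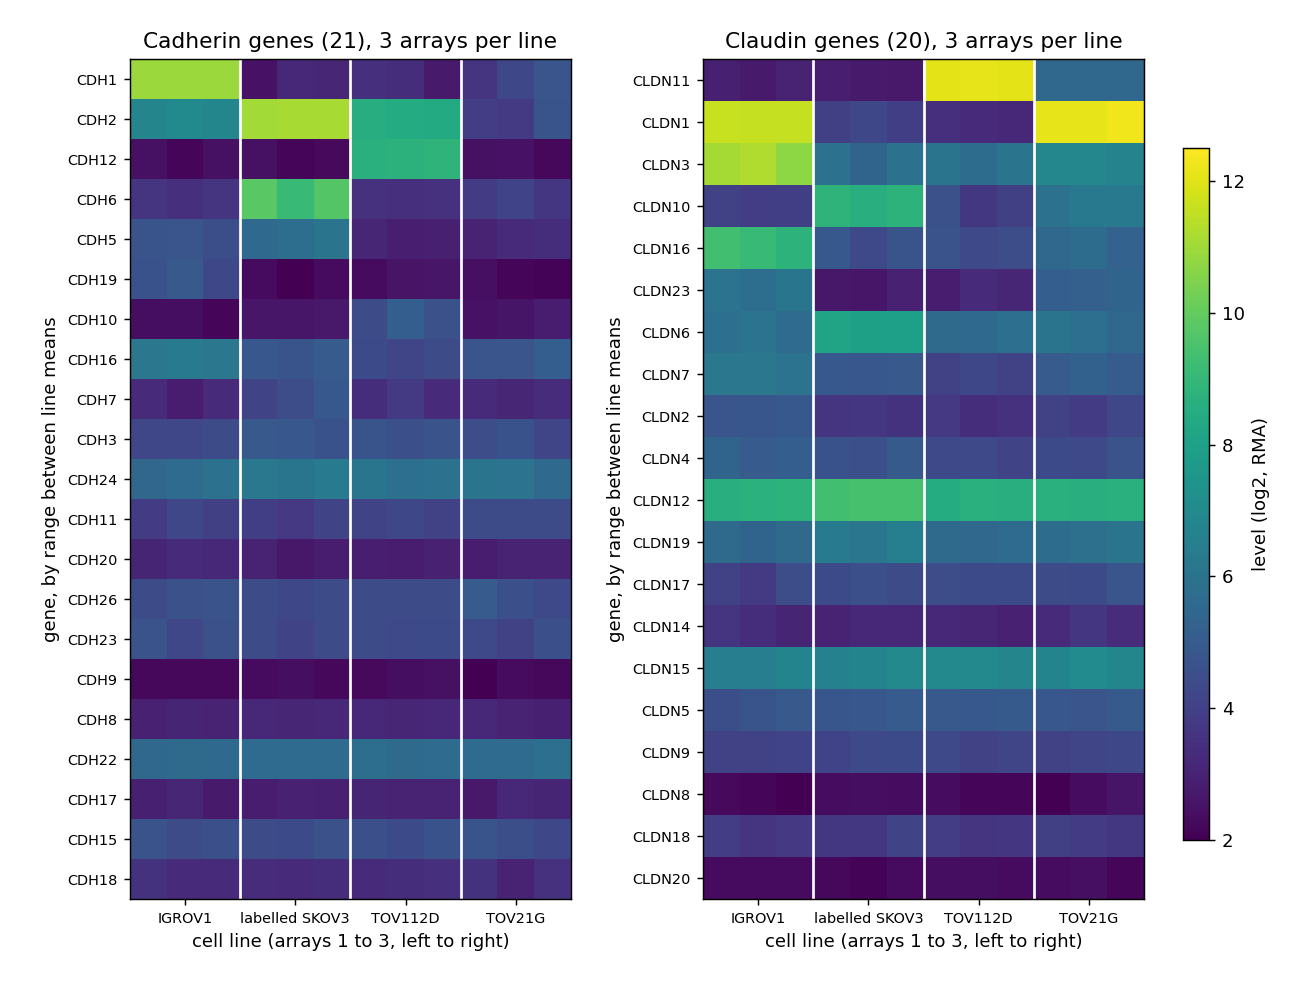
Levels (log2, RMA; colour) of the 21 cadherin genes (left) and 20 claudin genes (right) on each of the 12 arrays, 3 per line, with genes ordered from the largest to the smallest range between line means. The genes at the top are high in 1 or 2 lines, and most rows below CDH7 and CLDN2 keep 1 colour across all arrays.

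Type I classical cadherins were measured by 4 genes, and 2 of them, CDH1 and CDH2, were called in at least 1 pair, beside 34.4% of all genes. CDH1, the gene of E-cadherin, was high in IGROV1 alone. It read 10.94, 10.92 and 10.94 on the IGROV1 arrays and 2.52, 3.21 and 3.13 on the arrays labelled SKOV3. TOV112D gave 3.44, 3.39 and 2.75, and TOV21G 3.56, 4.29 and 4.77. Every IGROV1 array stood more than 6 units above every other array, and the TOV21G arrays were the most scattered. IGROV1 exceeded the arrays labelled SKOV3 by 7.98 ± 0.28 (SE, adjusted p = 1.2e-10), TOV112D by 7.74 ± 0.28 (adjusted p = 1.5e-10) and TOV21G by 6.73 ± 0.28 (adjusted p = 1.1e-09). The smaller step from TOV21G down to the arrays labelled SKOV3 was called at 1.25 ± 0.28 (adjusted p = 0.0021), but it fell to 0.97 without TOV21G replicate 3 and to 0.66 with the mean of both CDH1 probe sets. The step from TOV21G to TOV112D, 1.01, lay at the limit of a call and went to between 0.73 and 0.97 without TOV112D replicate 3, TOV21G replicate 2 or TOV21G replicate 3.

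CDH2, the gene of N-cadherin, was by the probe sets used the 1 gene of the 41 that was called in all 6 pairs. It read 11.03, 11.11 and 11.13 on the arrays labelled SKOV3 and 8.53, 8.48 and 8.42 in TOV112D. IGROV1 gave 6.76, 7.01 and 6.83, and TOV21G 3.89, 3.80 and 4.71. The 4 lines did not overlap at any step of this order. Between its extremes, the arrays labelled SKOV3 exceeded TOV21G by 6.95 ± 0.18 (SE, limma adjusted p = 9.8e-12), and the steps between neighbours in the order were 2.61 ± 0.18, 1.61 ± 0.18 and 2.73 ± 0.18. By the probe sets used, IGROV1 thus held both CDH1 and CDH2 well above the floor. TOV21G had the lowest CDH2 and a CDH1 mean of 4.20 ± 0.61 (SD, n = 3). The second CDH2 probe set gave the same order, with 8.96 on the arrays labelled SKOV3 and 6.29 in TOV112D. It read 5.21 in IGROV1 and 4.41 in TOV21G, a step under the minimum for a call. The other type I genes did not pass in any pair: P-cadherin (CDH3) had line means of 4.31 to 4.81, and the muscle cadherin gene CDH15 4.46 to 4.55.

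Type II classical cadherins, many of which are best known from the nervous system, were measured by 13 genes. Of these, 6 were called in at least 1 pair, beside 34.4% of all genes. CDH6, or kidney cadherin, was high only in the arrays labelled SKOV3. These read 9.81, 9.10 and 9.69, against 3.56, 3.44 and 3.59 in IGROV1, 3.50, 3.41 and 3.49 in TOV112D and 3.87, 4.13 and 3.65 in TOV21G. They were higher by 6.00 ± 0.16 than IGROV1, by 6.06 ± 0.16 than TOV112D and by 5.65 ± 0.16 than TOV21G (limma, adjusted p = 1.2e-11, 1.3e-11 and 2.3e-11), and the other 3 lines did not pass against each other. CDH6 has 6 probe sets, more than any other gene described here with calls, and all 6 were highest in the arrays labelled SKOV3, with ranges between lines of 3.07 to 8.28.

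CDH12, or brain cadherin, was high only in TOV112D, with 8.66, 8.76 and 8.81. Its values on the other 9 arrays were 2.14 to 2.51, at the floor. TOV112D exceeded the arrays labelled SKOV3 by 6.44 ± 0.11 (SE, limma adjusted p = 2.5e-13), and the other 3 lines did not pass against each other. CDH10, another cadherin of the brain, was also highest in TOV112D, at 4.40, 5.15 and 4.62 against 2.17 to 2.79 on the other arrays. The difference from IGROV1 was 2.42 ± 0.15 (adjusted p = 3.1e-08). CDH12 and CDH10 lie close together on chromosome 5 with 1 other protein-coding gene between them.

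CDH5, the gene of VE-cadherin of endothelial junctions, read 5.58, 5.81 and 6.04 on the arrays labelled SKOV3 and 4.74, 4.77 and 4.51 in IGROV1. TOV112D gave 3.14, 2.87 and 2.91, and TOV21G 3.04, 3.25 and 3.36. The first 2 groups did not overlap with each other or with the last 2, for which the difference was 0.24 ± 0.13 (adjusted p = 0.13). The arrays labelled SKOV3 exceeded IGROV1 by 1.13 ± 0.13 (limma adjusted p = 6.2e-06) and TOV112D by 2.83 ± 0.13 (adjusted p = 1.3e-09). Of the 5 endothelial markers measured, 2 were called higher in the arrays labelled SKOV3 than the mean of the other lines. These were the receptor genes KDR, at 7.41 against 2.80 to 3.11, and TIE1, at 5.83 against 2.42 to 2.55. PECAM1 was at 4.97 there and highest in IGROV1 at 6.33, TEK was at 4.47 to 4.84 and VWF at 4.31 to 4.41 in all lines. The summed level of the 5 was 27.14 to 27.78 on the arrays labelled SKOV3 and 19.17 to 20.88 elsewhere. The part of these markers in the CDH5 result was not tested.

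CDH19 and CDH7, which neighbour each other on chromosome 18, moved in different lines and rest on 1 probe set each. CDH19, a cadherin of the neural crest, read 4.65, 4.94 and 4.29 in IGROV1 and 1.91 to 2.65 on the other arrays, and IGROV1 exceeded the arrays labelled SKOV3 by 2.46 ± 0.17 (SE, limma adjusted p = 5.8e-08). With the mean of its 3 probe sets the difference was 0.90 and no longer called. CDH7 read 4.16, 4.48 and 4.91 on the arrays labelled SKOV3 and 2.84 to 3.80 elsewhere, a difference from IGROV1 of 1.40 ± 0.19 (adjusted p = 3.5e-05). With the mean of its 2 probe sets this was 0.77. Its difference from TOV112D, 1.03, was under 1 without SKOV3 replicate 3 (0.84), TOV112D replicate 1 (0.99) or TOV112D replicate 3 (0.92).

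Among the 4 other cadherins measured, 1 was called in at least 1 pair, CDH16, beside 34.4% of all genes. This kidney-specific cadherin gene, known as a PAX8 target in the thyroid, read 6.18, 6.29 and 6.18 in IGROV1, 4.84, 4.74 and 5.02 on the arrays labelled SKOV3, 4.37, 4.19 and 4.39 in TOV112D and 4.78, 4.75 and 5.12 in TOV21G. No array of another line reached the IGROV1 arrays. IGROV1 was higher by 1.35 ± 0.11 than the arrays labelled SKOV3, by 1.90 ± 0.11 than TOV112D and by 1.33 ± 0.11 than TOV21G (limma, adjusted p = 2.1e-07, 8.5e-09 and 3.9e-07). The lineage factor PAX8 itself read 10.26 in IGROV1, 7.12 on the arrays labelled SKOV3, 6.96 in TOV112D and 10.04 in TOV21G, where CDH16 was at 4.88 ± 0.20 (SD, n = 3).

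**Figure D2:**
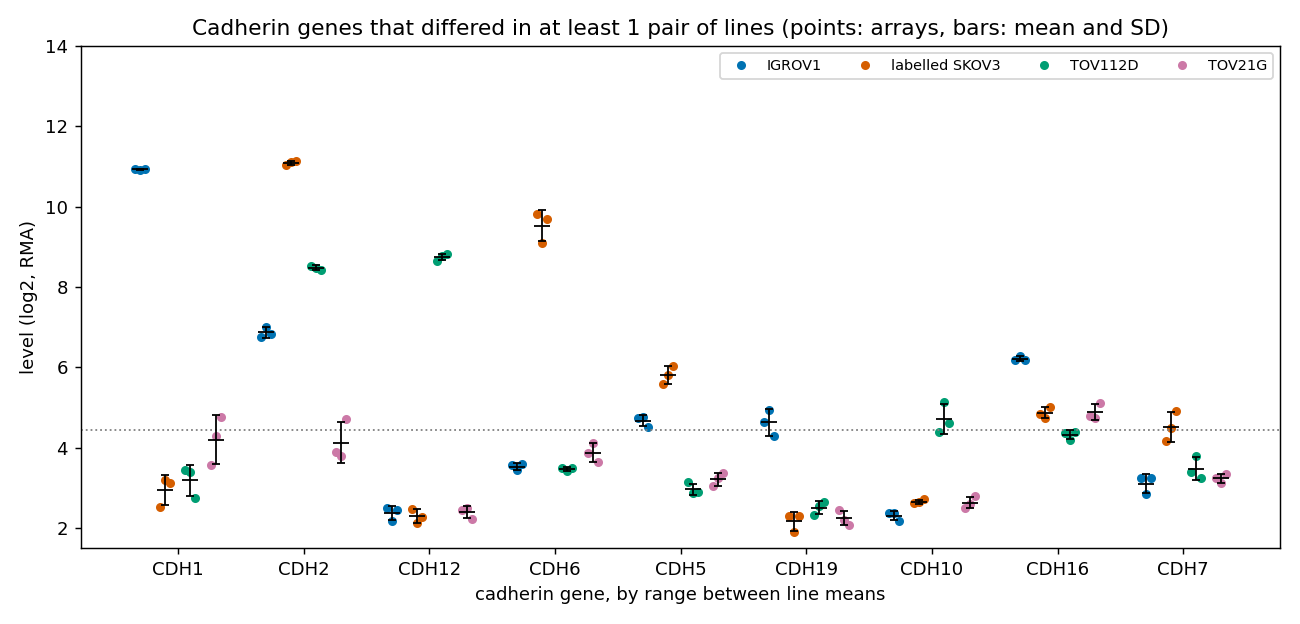
Levels (log2, RMA) of the 9 cadherin genes called in at least 1 pair of lines: points are arrays, horizontal marks with bars are the mean and SD of 3 arrays, colours are lines and the dotted line is the median of all deposited values, 4.44. CDH1 is high in IGROV1, CDH12 in TOV112D and CDH6 in the arrays labelled SKOV3, while CDH2 takes a separate level in each line.

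The 12 cadherins with no call were CDH3, CDH8, CDH9, CDH11, CDH15, CDH17, CDH18, CDH20, CDH22, CDH23, CDH24 and CDH26. Their line means were 2.17 to 6.20 and their ranges between lines 0.03 to 0.51, with a median range of 0.20. CDH11, a cadherin of mesenchymal cells, belonged here with 3.94 to 4.44, also in the 2 groups with high CDH2. CDH24 had means of 5.69 to 6.20 and CDH22 of 5.59 to 5.73.

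Claudins are grouped by sequence into classic and non-classic members. Of the measured genes, 6 of 14 classic and 3 of 6 non-classic were called in at least 1 pair, beside 34.4% of all genes. The sequences before the starts of 6 claudin genes are shown because these genes form the contrasts described next: CLDN3 and CLDN4 are direct neighbours on chromosome 7 and CLDN1 and CLDN16 on chromosome 3, and CLDN6 and CLDN11 were each highest in a line of their own. Each is the 250 bases before the outermost RefSeq start (GRCh38.p14), 5′ to 3′ on the gene's strand. Capitals mark matches on either strand to the GC box GGGCGG or to CACCTG, the E-box form bound by SNAI and ZEB factors; overlapping matches were counted. The windows are chr7:73770271-73770520, minus strand for CLDN3, chr7:73830746-73830995, plus strand for CLDN4, chr3:190322447-190322696, minus strand for CLDN1, chr3:190290111-190290360, plus strand for CLDN16, chr16:3018184-3018433, minus strand for CLDN6 and chr3:170418618-170418867, plus strand for CLDN11.
CLDN3: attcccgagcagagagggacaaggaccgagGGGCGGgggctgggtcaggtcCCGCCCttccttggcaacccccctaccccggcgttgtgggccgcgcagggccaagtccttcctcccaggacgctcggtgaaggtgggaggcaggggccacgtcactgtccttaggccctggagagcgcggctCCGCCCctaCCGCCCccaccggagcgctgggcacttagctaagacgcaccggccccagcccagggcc
CLDN4: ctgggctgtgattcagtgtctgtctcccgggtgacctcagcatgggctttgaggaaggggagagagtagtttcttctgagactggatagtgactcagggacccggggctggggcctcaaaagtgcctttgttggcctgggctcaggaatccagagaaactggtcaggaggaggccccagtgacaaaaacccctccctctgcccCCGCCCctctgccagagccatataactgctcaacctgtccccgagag
CLDN1: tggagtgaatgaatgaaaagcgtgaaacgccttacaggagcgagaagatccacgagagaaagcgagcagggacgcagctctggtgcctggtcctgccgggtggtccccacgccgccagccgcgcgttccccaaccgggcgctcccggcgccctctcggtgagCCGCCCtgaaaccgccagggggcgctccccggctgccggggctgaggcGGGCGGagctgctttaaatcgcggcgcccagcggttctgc
CLDN16: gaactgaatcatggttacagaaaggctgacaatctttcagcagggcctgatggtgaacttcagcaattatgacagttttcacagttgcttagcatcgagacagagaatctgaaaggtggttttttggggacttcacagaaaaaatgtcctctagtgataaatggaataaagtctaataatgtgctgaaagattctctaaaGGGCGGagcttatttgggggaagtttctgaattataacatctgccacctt
CLDN6: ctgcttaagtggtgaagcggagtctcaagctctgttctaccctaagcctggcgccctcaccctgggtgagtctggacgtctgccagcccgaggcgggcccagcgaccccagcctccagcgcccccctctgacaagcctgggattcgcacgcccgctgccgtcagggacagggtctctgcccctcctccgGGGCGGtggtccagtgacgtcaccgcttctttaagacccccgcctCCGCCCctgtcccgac
CLDN11: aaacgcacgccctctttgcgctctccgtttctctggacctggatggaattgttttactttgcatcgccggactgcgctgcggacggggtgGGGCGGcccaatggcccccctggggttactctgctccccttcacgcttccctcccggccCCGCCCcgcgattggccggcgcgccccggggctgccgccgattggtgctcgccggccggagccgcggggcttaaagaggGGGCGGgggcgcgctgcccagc

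These windows held 4 GC boxes for CLDN3, 1 for CLDN4, 2 for CLDN1, 1 for CLDN16, 2 for CLDN6 and 3 for CLDN11, and a GC box was found in 42.6% of all 35116 listed windows of this length. The ratio of observed to expected CpG was 0.95 for CLDN1, 0.92 for CLDN11, 0.64 for CLDN6 and 0.59 for CLDN3, but 0.21 for CLDN16 and 0.19 for CLDN4, beside a median of 0.56 over all windows. CACCTG was in none of the 6. Of the 25 genes with a window at their outermost start in the table, 1 (4%) had it, CLDN18. Over the 44 listed windows of 26 of the 41 genes, alternative starts included, it was in 4 (9.09%), those of CDH23, CLDN14, CLDN18 and CLDN7, and over all listed windows in 17.5%. CLDN7, one of the called genes, had 4 matches before an inner start. The called genes CDH1, CDH5, CDH6, CDH16 and CLDN23 are not among the 26, so their sequences are not covered. These are counts of letters in the listed windows.

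CLDN1, which is needed for the skin barrier, was high in IGROV1 and TOV21G and low in the other lines. It read 11.63, 11.57 and 11.57 in IGROV1 and 12.13, 12.13 and 12.28 in TOV21G. The arrays labelled SKOV3 gave 3.99, 4.27 and 3.95, and TOV112D 3.47, 3.29 and 3.21. The lines fell into 2 levels far apart, and within the upper level the 0.59 ± 0.09 by which TOV21G exceeded IGROV1 was under the minimum for a call (adjusted p = 0.0002). TOV21G exceeded TOV112D by 8.86 ± 0.09 (SE, limma adjusted p = 6.6e-15) and the arrays labelled SKOV3 by 8.11 ± 0.09 (adjusted p = 1.6e-14). Its second probe set gave the same order at its upper end, with 8.98 in TOV21G and 8.07 in IGROV1 against 2.93 and 3.01.

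CLDN16, a claudin of the kidney tubule that serves magnesium reabsorption, has a gene span that overlaps that of CLDN1. It read 9.31, 9.07 and 8.78 in IGROV1, and 5.54, 5.70 and 5.29 in TOV21G. Values were 4.88, 4.33 and 4.74 on the arrays labelled SKOV3 and 4.69, 4.32 and 4.50 in TOV112D. IGROV1 stood apart from every other array, by 4.55 ± 0.17 from TOV112D (limma adjusted p = 1.9e-10) and by 3.55 ± 0.17 from TOV21G (adjusted p = 3.8e-09). TOV21G, which had the most CLDN1, was thus well below IGROV1 for CLDN16. It exceeded TOV112D by 1.0 ± 0.17 (adjusted p = 0.00025), at the limit of a call, which was lost without TOV112D replicate 2 (0.91), TOV21G replicate 1 (0.99) or TOV21G replicate 2 (0.91) and with centred arrays (0.90).

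CLDN3, a sealing claudin widely raised in ovarian carcinoma, was highest in IGROV1 with 11.08, 11.26 and 10.71. TOV21G gave 6.84, 6.86 and 6.71, the arrays labelled SKOV3 5.97, 5.39 and 5.95, and TOV112D 6.05, 5.70 and 6.06. IGROV1 exceeded the arrays labelled SKOV3 by 5.25 ± 0.17 (SE, limma adjusted p = 6.4e-11) and TOV21G by 4.21 ± 0.17 (adjusted p = 9.5e-10). The probe set used ends in _x_at and is open to cross-hybridisation. The other CLDN3 probe set had the same order at its upper end and a wider range, with 10.66 in IGROV1, 6.09 in TOV21G and 3.20 to 3.40 in the remaining groups. By it TOV21G exceeded TOV112D by 2.89 and was called, whereas by the probe set used the difference was 0.87 and was not. CLDN4, its neighbour and the other claudin most often named with it in ovarian carcinoma, was not called in any pair, with 5.18 ± 0.20 (SD, n = 3) in IGROV1 and 4.26 to 4.73 in the other lines. The difference between IGROV1 and TOV112D was 0.92 ± 0.13 (adjusted p = 6.2e-05), just under the minimum, and it came to 1.0 and was called without IGROV1 replicate 2.

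CLDN10, whose isoforms form ion channels, was highest in the arrays labelled SKOV3 with 8.81, 8.63 and 8.78. TOV21G followed with 5.94, 6.23 and 6.24, then TOV112D with 4.60, 3.72 and 3.97 and IGROV1 with 4.07, 3.90 and 3.94. The last 2 overlapped, with a difference of 0.12 ± 0.18 (adjusted p = 0.6), and 5 of the 6 pairs were called. The arrays labelled SKOV3 exceeded IGROV1 by 4.77 ± 0.18 (limma adjusted p = 2e-10) and TOV21G by 2.60 ± 0.18 (adjusted p = 6.7e-08). The second CLDN10 probe set was also highest there, at 3.75, but its difference from IGROV1 was 0.69 and under the minimum, and TOV21G had its lowest mean, 2.92, without the step of TOV21G above TOV112D and IGROV1. With the mean of both probe sets the difference between TOV21G and TOV112D went from 2.04 to 1.0 and was no longer called.

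CLDN6, a claudin of early development that most adult tissues lack, was likewise highest in the arrays labelled SKOV3. They read 8.15, 7.95 and 7.92, against 5.84, 6.00 and 5.66 in IGROV1, 5.64, 5.58 and 5.84 in TOV112D and 6.06, 5.84 and 5.50 in TOV21G. The last 3 lines overlapped and none passed against another. Against TOV112D, the arrays labelled SKOV3 were higher by 2.33 ± 0.14 (SE, limma adjusted p = 1.7e-08). The dimmer of its 2 probe sets gave a wider gap, with 8.80 ± 0.21 (SD, n = 3) in those arrays and 3.26 to 3.50 in the other lines. CLDN9, which lies next to CLDN6 on chromosome 16, had line means of 4.07 to 4.27 and was not called.

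Smaller differences were found for CLDN7 and CLDN2. CLDN7, a claudin of many epithelia, read 6.15, 6.16 and 6.00 in IGROV1, 5.03, 5.28 and 5.04 in TOV21G, 4.90, 4.84 and 4.94 on the arrays labelled SKOV3 and 4.04, 4.26 and 4.04 in TOV112D. IGROV1 exceeded TOV112D by 1.99 ± 0.09 (limma adjusted p = 8.5e-10). Its differences of TOV21G from IGROV1 (0.99, not called) and from TOV112D (1.0, called) lay on either side of the limit and changed sides with the scaling: with centred arrays they were 1.13 and 0.90. They also changed sides without single arrays, the first to 1.04 without IGROV1 replicate 3 and to 1.07 without TOV21G replicate 2, and the second to 0.97 without TOV112D replicate 1 or 3 and to 0.92 without TOV21G replicate 2. CLDN2, a channel-forming claudin of leaky epithelia, read 4.78, 4.79 and 4.88 in IGROV1 and 3.37 to 4.24 on all other arrays, and IGROV1 exceeded TOV112D by 1.29 ± 0.11 (adjusted p = 5.3e-07).

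CLDN11, known from myelin and from Sertoli cells of the testis, was high in TOV112D with 12.05, 12.09 and 12.08. TOV21G followed with 5.55, 5.53 and 5.53, and IGROV1 gave 2.92, 2.76 and 3.01 and the arrays labelled SKOV3 2.88, 2.76 and 2.71. TOV112D and TOV21G each stood clear of all other arrays, and the last 2 overlapped at the floor. The difference between TOV112D and the arrays labelled SKOV3, 9.29 ± 0.07 (SE, limma adjusted p = 1.2e-15), was the widest of the 41 genes by the probe sets used. With the mean of all probe sets it was 3.88, below CLDN1 (7.41), CDH12 (6.44), CLDN3 (6.25), CDH6 (5.97) and others. TOV112D exceeded TOV21G by 6.54 ± 0.07 (adjusted p = 7.8e-15). The second CLDN11 probe set was also highest in TOV112D, with 7.22 against 5.03 to 5.18, and did not set TOV21G apart. The third stayed at 2.01 to 2.23 in all lines, and the mean of the 3 probe sets put TOV21G only 0.92 above IGROV1, not called.

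CLDN23 read 6.01, 5.79 and 6.09 in IGROV1 and 5.12, 5.23 and 5.38 in TOV21G. Lower values were found on the arrays labelled SKOV3, with 2.66, 2.63 and 2.97, and in TOV112D, with 2.82, 3.31 and 3.12. As for CLDN1, IGROV1 and TOV21G formed the upper level, with 0.72 ± 0.13 between them and no call (adjusted p = 0.00067). IGROV1 exceeded the arrays labelled SKOV3 by 3.21 ± 0.13 (limma adjusted p = 6.1e-10). All 3 CLDN23 probe sets were highest in IGROV1, with ranges of 0.22 to 3.21, the smallest of them within the spread of the arrays. With their mean the range was 1.65, and the difference between TOV21G and TOV112D went from 2.16 to 0.96 and was no longer called.

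**Figure D3:**
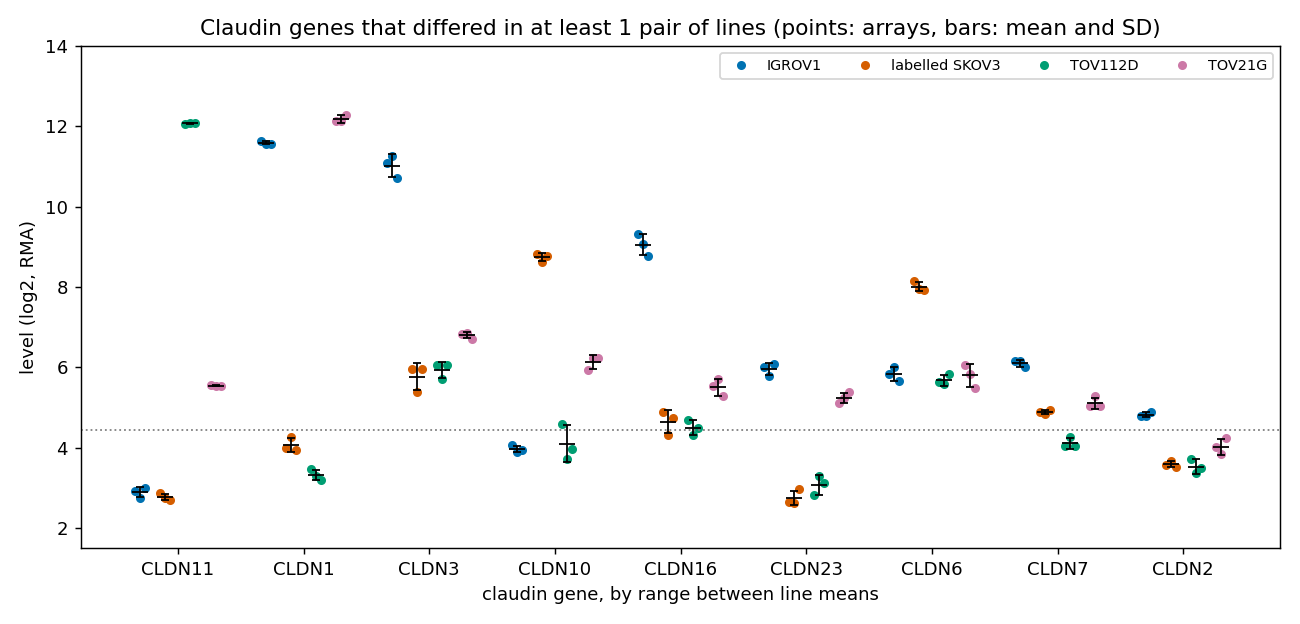
Levels (log2, RMA) of the 9 claudin genes called in at least 1 pair of lines, drawn as for the cadherins: points are arrays, marks with bars are the mean and SD of 3 arrays, and the dotted line is at 4.44. CLDN1 and CLDN23 split the lines into IGROV1 with TOV21G above and the other lines below, and CLDN11 is highest in TOV112D.

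The 11 claudins with no call were CLDN4, CLDN5, CLDN8, CLDN9, CLDN12, CLDN14, CLDN15, CLDN17, CLDN18, CLDN19 and CLDN20, with ranges between lines of 0.14 to 0.92. CLDN12 stayed between 8.58 and 9.40 in all lines. It was higher in the arrays labelled SKOV3 than in TOV112D by 0.81 ± 0.06 (SE, limma adjusted p = 2.3e-07), under the minimum. CLDN15, a channel-forming claudin of the intestine, had means of 6.57 to 6.88 by the probe set used. Its dimmer probe set ranged by 1.17, from 4.61 ± 0.20 (SD, n = 3) in IGROV1 to 5.78 ± 0.03 in TOV112D. CLDN5, the claudin of endothelium, had 4.73 to 4.93 and did not follow CDH5.

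Of the called genes, 11 have more than 1 probe set, with 18 probe sets beside those used. Of these 18, 12 had a range between lines of at least 1, and all 12, from CDH1, CDH2, CDH6, CLDN1, CLDN3, CLDN6, CLDN11 and CLDN23, were highest in the same line as the probe set used. The other 6, from CDH7, CDH19, CLDN10, CLDN11 and CLDN23, had ranges of 0.15 to 0.83 and did not show the difference at its size. The remaining 7 called genes have 1 probe set. The size of a difference depended on the probe set: for CDH1 the dimmer probe set gave 5.03 ± 0.27 (SD, n = 3) in IGROV1 and 3.12 to 3.23 in the other lines, a range of 1.91 beside 7.98.

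**Figure D4:**
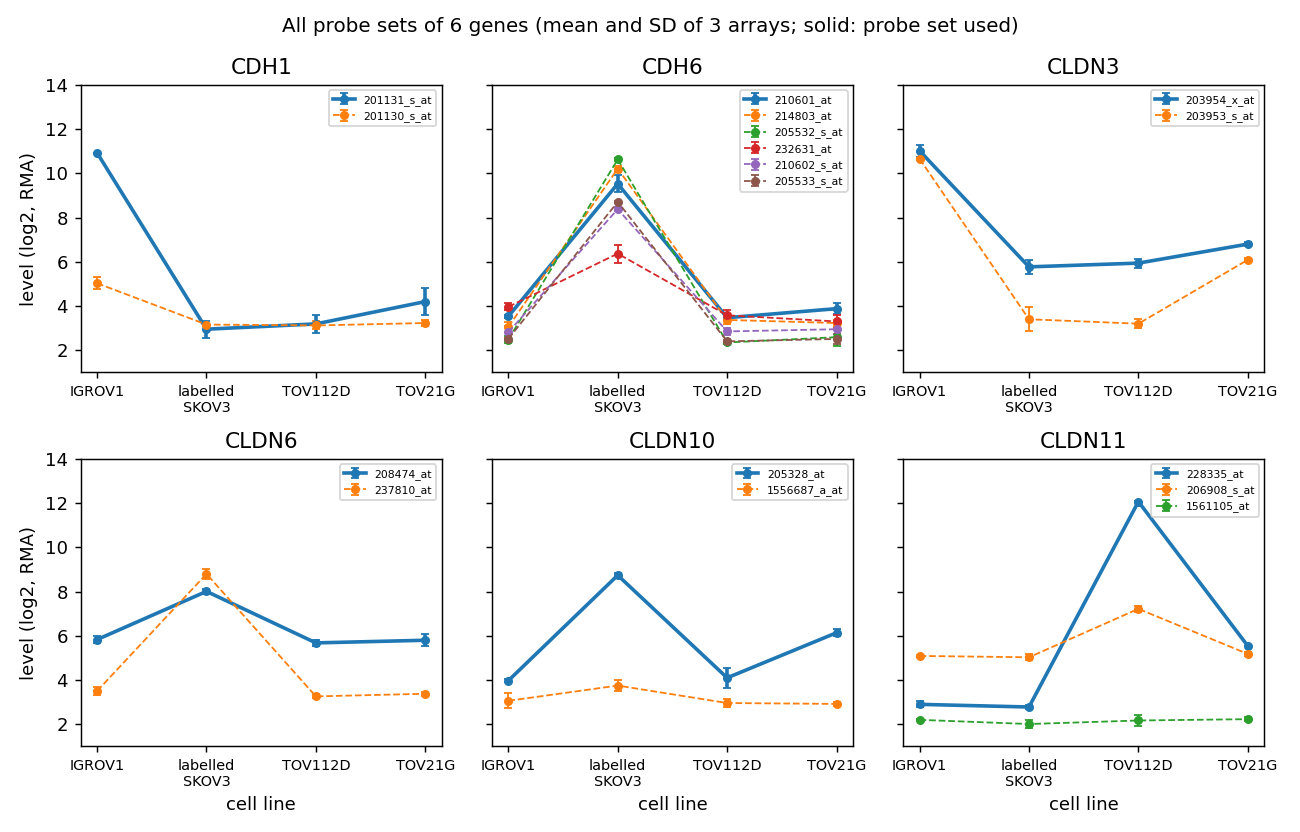
Line means and SD (log2, RMA; 3 arrays per line) of every probe set of CDH1, CDH6, CLDN3, CLDN6, CLDN10 and CLDN11, with the probe set used drawn solid. All 6 CDH6 probe sets peak in the arrays labelled SKOV3, whereas the third CLDN11 probe set stays between 2.01 and 2.23.

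Between pairs of lines, the cadherins and claudins were called most often where IGROV1 was set against the arrays labelled SKOV3 or against TOV112D. Against the arrays labelled SKOV3, 15 of 41 were called (36.6%, beside 18.8% of all genes), 9 higher and 6 lower in IGROV1. Against TOV112D, 14 were called (34.1%, beside 18.0%), 10 higher and 4 lower in IGROV1. Against TOV21G, 9 were called (22.0%, beside 12.6%), 7 of them higher in IGROV1. The arrays labelled SKOV3 differed from TOV112D in 9 genes (22.0%, beside 16.1%) and from TOV21G in 11 (26.8%, beside 17.4%). TOV112D and TOV21G differed in 10 (24.4%, beside 17.0%), 4 higher and 6 lower in TOV112D. With centred arrays or quantile normalization CDH1, CLDN7 and CLDN16, at the limit, were not called, and the split was 4 higher and 3 lower. The median difference over the 41 genes was between -0.07 and 0.06 in the 6 pairs, beside -0.03 to 0.01 over all genes. These comparisons share their lines and are not independent.

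A gene was set apart in a line when it was called the same way against each of the other 3 lines. IGROV1 had 5 (12.2%, beside 4.47% of all genes), which were CDH1, CDH16, CDH19, CLDN3 and CLDN16. The arrays labelled SKOV3 had 6 (14.6%, beside 5.37%): CDH2, CDH5, CDH6, CDH7, CLDN6 and CLDN10. TOV112D had 3 (7.32%, beside 5.38%), CDH10, CDH12 and CLDN11. All of these were higher in their line. TOV21G had 1 (2.44%, beside 3.33%), CDH2, which was lower there. With the mean of all probe sets, CDH19 and CDH7 were no longer set apart. The differences of CDH19 in IGROV1 were then 0.83 to 0.93, and those of CDH7 in the arrays labelled SKOV3 0.59 to 0.77.

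Against the mean of the other 3 lines, 9 of the 41 genes were higher in IGROV1 (7.20% of all genes) and 6 lower (7.10%). In the arrays labelled SKOV3, 6 were higher (6.53%) and 7 lower (8.01%). In TOV112D, 4 were higher (7.03%) and 10 lower (7.64%), the latter including CDH1, CLDN1, CLDN3, CLDN7, CLDN16 and CLDN23. In TOV21G, 2 were higher (7.09%), CLDN1 and CLDN23, and 5 lower (5.15%), all of them cadherins. A gene that is high in only 1 line lowers every other line in this comparison: CDH6 counted as lower in IGROV1, TOV112D and TOV21G, although these 3 lines did not pass against each other.

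**Figure D5:**
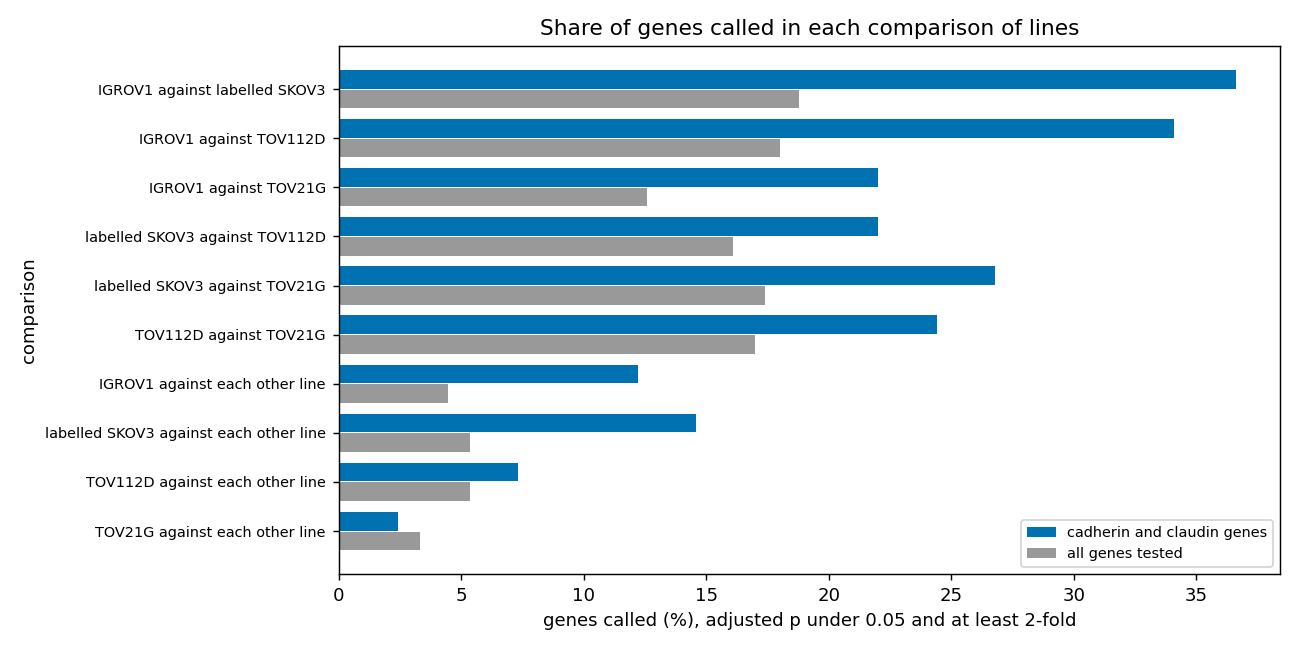
Percentage of genes called in each pair of lines and set apart in each line, for the 41 cadherin and claudin genes (blue) and all 19775 genes tested (grey). The blue bar is the longer one in every comparison except TOV21G against each other line, where it is 2.44% beside 3.33%.

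There were 12 pairs of cadherin or claudin genes with at most 2 protein-coding genes between them. The highest line was the same for both genes in 4 of the 12, CDH12 with CDH10, CDH10 with CDH9, CLDN3 with CLDN4 and CLDN6 with CLDN9, though of these only CDH12 and CDH10 were both called. In 3 pairs both genes were called, CDH12 with CDH10, CLDN1 with CLDN16 and CDH7 with CDH19. In 7 pairs 1 gene was called and the other was not, as for CDH1 beside CDH3, CLDN3 beside CLDN4, CLDN6 beside CLDN9 and CDH12 beside CDH18. In the remaining 2 pairs neither was called. The shared highest line rests on a small range for CDH9 (0.19), CLDN9 (0.19) and CLDN4 (0.92). Of all genes, 34.4% were called in at least 1 pair of lines, and neighbour pairs over all genes were not counted.

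The partners of these proteins were examined from lists. Of 13 measured adherens junction partners, which link cadherins to actin or pair with nectins, 1 to 4 were called per line against the mean of the others. In the same comparisons, 6.53% to 7.20% of all genes were called higher and 5.15% to 8.01% lower. CTNNA1 and CTNNB1, the genes of alpha- and beta-catenin, had ranges between lines of 0.40 and 0.92. The plakoglobin gene JUP was at 7.39 in TOV112D and 7.86 to 8.92 in the others (limma adjusted p = 4.5e-09), and vinculin (VCL) at 10.36 and 11.28 to 11.83 (adjusted p = 1.8e-10). The nectin gene NECTIN3 was at 2.89 in TOV112D and at 8.16 to 9.68 in the others (adjusted p = 1.6e-14), and the alpha-catenin gene of neurons, CTNNA2, was higher in TOV112D by 1.40 (adjusted p = 3.2e-07).

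Of 18 measured tight junction partners, 5 were called higher and 3 lower in IGROV1, 3 and 3 on the arrays labelled SKOV3, 4 and 3 for TOV112D, and 1 and 3 in TOV21G. The shares of all genes are those given for the adherens junction partners. MARVELD2, the gene of tricellulin, was higher in the lines with high CLDN1, with 8.51 in IGROV1 and 7.42 in TOV21G against 3.46 and 2.81. JAM3, a junctional adhesion molecule, read 4.24 and 4.05 in these lines and 9.89 on the arrays labelled SKOV3 and 10.58 in TOV112D. Its relative JAM2 was at 9.70 in TOV112D and at 3.08 to 3.40 elsewhere. The polarity genes PATJ and PARD6B were highest in IGROV1, at 8.68 and 10.14, with lowest means of 3.95 on the arrays labelled SKOV3 and 6.07 for TOV112D. The scaffold TJP1 and occludin (OCLN) ranged by 0.73 and 0.96 between lines and were not called.

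Of 15 measured regulators of cadherin genes, 7 or 8 were called per line against the mean of the others. Beside them, 6.53% to 7.20% of all genes were called higher and 5.15% to 8.01% lower. The repressors TWIST1, ZEB2 and SNAI2 were lowest in IGROV1, at 2.51, 2.06 and 2.52. ZEB2 and SNAI2 were also low in TOV21G, at 2.85 and 2.57, and TWIST1 was at 7.12 there. ZEB1 read 7.80 in IGROV1, 9.18 in TOV21G and 8.87 on the arrays labelled SKOV3, and 3.48 in TOV112D. Whether these levels relate to CDH1 was not tested. The epithelial factor EHF was at 8.72 in IGROV1 and 3.06 to 3.53 elsewhere. ELF3 was at 8.31 in IGROV1 and 8.10 in TOV21G against 4.60 and 4.35. GRHL2 and ESRP1, known from epithelial cells, were at 2.48 to 2.65 and 2.97 to 3.29 in all lines, IGROV1 included.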

How the data were processed

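Total RNA of 4 ovarian cancer cell lines was hybridised to 12 Affymetrix U133 Plus 2.0 arrays, with 3 for each line. For 54675 probe sets the authors deposited log2 values in 1 table, made by robust multi-array averaging (RMA) in affy, per the submitters' processing notes, and its version is not given in the sources used here. Values ran from 1.478 to 13.999. RMA quantile-normalizes the arrays, so an overall difference in RNA content cannot be seen, and no detection calls were used. Probe sets were named from the platform annotation, with 41091 listed with 1 gene and used and 1801 with several and left out, and symbols were checked against RefSeq (GRCh38.p14).

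The model was fitted in limma 3.58.1 (R 4.3.3) to the 12 arrays together, with 1 mean for each line and 8 residual degrees of freedom. Each pair of lines, and each line against the average of the remaining 3, was tested with eBayes and Benjamini-Hochberg adjustment over 19775 genes within each contrast. The median standard error of a pair was 0.094, and the number of arrays limits the precision. Genes with a highest line mean of at least 4.44 and a call in at least 1 pair were described array by array; partners, regulators and markers came from lists, with up to 5 called genes named per list beside genes chosen after their values were seen (CTNNA1, CTNNB1, TJP1, OCLN, GRHL2, ESRP1, ELF3). The genes and lists were chosen with earlier results of these data known. On simulated arrays, 50 of 50 genes changed by 1.5 on the log2 scale were recovered in each line, with 0 false calls. Changes of 1.5 lie well above the minimum of 1, and smaller ones were not simulated. The recovery therefore does not cover calls near the limit. An unchanged gene could hardly reach the minimum, since the median standard error of a line against the other 3 was 0.077. The 0 false calls could thus hardly have come out otherwise, and no conclusion is drawn from them. Alternatives were other probe set rules, scalings and priors, the replicate number as a block, single arrays left out, and fewer samples.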

Additional observations from a re-analysis of the deposited data

How the results depend on the processing

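The largest difference of each of the 18 called genes kept its direction under every alternative run for it. It fell under the minimum for CDH19 (0.90) and CDH7 (0.77) with the mean of all probe sets, and for CLDN10 (0.69), CDH19 (0.08) and CDH7 (0.15) with the second brightest probe set. With the mean of all probe sets, 1 gene in place of 2 was higher in TOV21G than in the other 3 lines, and 2 adherens junction partners in place of 1 were called in IGROV1. With the other 3 lines as 1 group, whose spread then holds the differences between lines, 0 genes were lower in IGROV1, 0 in the arrays labelled SKOV3, 1 in TOV112D and 1 in TOV21G, and 0 were higher in TOV21G. At an unadjusted limma p under 0.05 and the same minimum these counts were 0, 1, 4, 1 and 1. Without the arrays labelled SKOV3, without dim genes, without probe sets ending in _x_at, under centring, quantile normalization or another prior, and with the 6 arrays of a pair, all counts stayed within 1.5 times. So did the counts with 1 array left out; for TOV112D against TOV21G these were 7 to 10. Centring moved the median of all genes by -0.13 in TOV21G against the other 3 lines and by 0.10 to 0.16 where TOV21G was subtracted from another line. The shared replicate numbers did not pair the arrays (deviations of same-numbered arrays correlated at -0.0998 to 0.128, over 0.1 in 2 of 18 cases), and with the replicate block all counts were as given, 15 for IGROV1 against the arrays labelled SKOV3.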
